A study of Mus musculus with 18 samples.

Results

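The aryl hydrocarbon receptor (AHR) and the genes around it were followed in mouse lung after repeated oral doses of a mixture of polycyclic aromatic hydrocarbons. The members were 9 genes chosen by name: the receptor (Ahr), its dimer partner (Arnt), a repressor (Ahrr) and 6 classic target genes (Tiparp, Cyp1a1, Cyp1a2, Cyp1b1, Nqo1 and Aldh3a1). They were measured by 14 of the 55681 non-control probes of the array and make up 9 of the 20660 genes that could be named. Of the 9 genes, 8 were well above background in the lung channel on at least 1 array, and Cyp1a2 was not on any. The 18 animals were male MutaTMMouse of about 12 weeks, a transgenic strain on a BALB/c and DBA/2 background, and all groups share this transgene. Each was gavaged daily for 28 days and its lung was taken 3 days after the last dose. The vehicle group (mice 1 to 5) had olive oil alone. The low group (mice 6, 7, 9 and 10), the medium group (mice 11 to 15) and the high group (mice 16, 17, 18 and 20) had the 4PAH-Mix in olive oil. Their daily dose per kg of body weight, in mg of benzo(a)pyrene (BaP) equivalents, was 12.5 in the low, 25 in the medium and 50 in the high group. The 4PAH-Mix holds BaP, benz(a)anthracene, benzo(b)fluoranthene and chrysene. On each array the lung RNA of 1 mouse (Cy5) was set against Universal Mouse Reference RNA from 11 mouse cell lines (Cy3), without dye swaps. A single time point was sampled, 3 days after dosing had ended, so the values describe RNA left at that time and not its level during dosing.

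AHR is a transcription factor of the bHLH-PAS family that rests in the cytoplasm with HSP90 and co-chaperones. When a planar hydrocarbon binds, it moves to the nucleus, pairs with ARNT and binds DNA at short elements whose core reads GCGTG. Its best known targets are the CYP1 monooxygenases, which oxidize aromatic hydrocarbons to products that can be excreted or can bind DNA, and the feedback genes Ahrr and Tiparp, whose products restrain the receptor. In lung, CYP1 induction is known above all from endothelium and airway epithelium.

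Values are log2 ratios of lung to reference RNA for the brightest probe of each gene, and a log2 change is a dose group's mean minus the vehicle mean. A gene was called when limma's moderated test over all 4 groups gave a Benjamini-Hochberg adjusted p of 0.05 or less over all probes and the change was at least 1.5-fold. Ratios of different probes are not comparable in level, so each gene is set only against itself. In RNA of whole lung tissue, fewer cells of a type and less RNA per cell cannot be told apart. The lung label was borne out by markers of endothelium, club cells, alveolar type 1 and type 2 cells and ciliated cells, which were well above background on every array, while none of 3 hepatocyte markers was above background on all arrays of any group.

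At the low, medium and high dose, 2 of the 9 members were called higher, and they were Ahrr and Cyp1b1 each time. No member was called lower at any dose. Over all named genes, the share called higher was 0.116%, 0.503% and 0.736% in order of rising dose, and the share called lower was 0.0436%, 0.431% and 0.774%. For the same 2 members alone, the values of vehicle and dosed mice did not overlap at each dose, against 3.35%, 5.96% and 10.7% of all named genes in either direction. The median log2 change of the 9 members was 0.12, 0.06 and 0.22 at the 3 doses, beside 0.01, 0.02 and 0.02 for all named genes. The list is small and its median says little, since 4, 4 and 3 of its 9 members were below the vehicle mean.

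**Figure D1:**
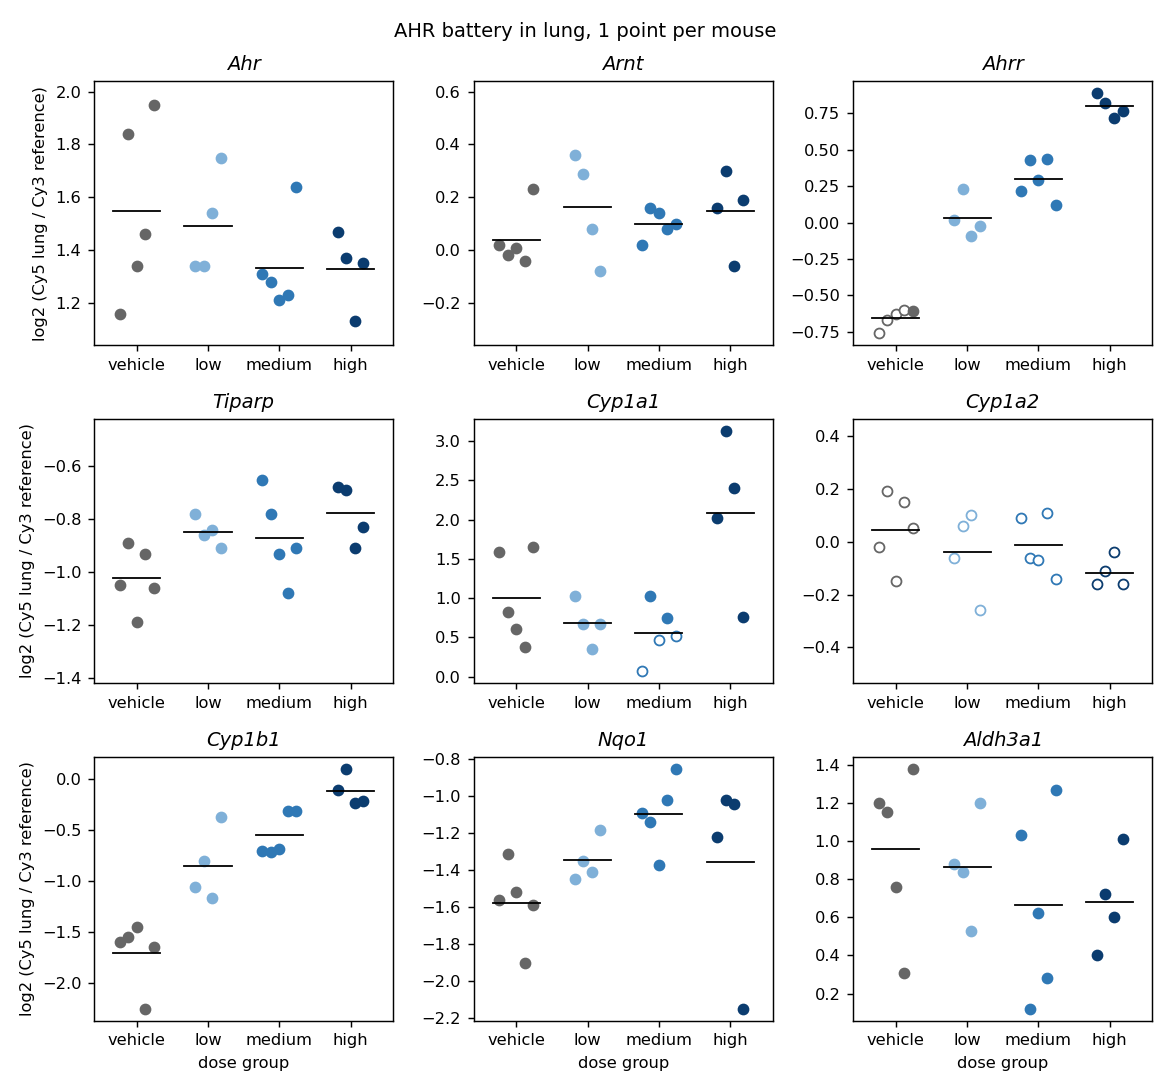
Log2 ratio of lung RNA (Cy5) to reference RNA (Cy3) for the brightest probe of each of the 9 members, 1 point per mouse by dose group, with a line at the group mean. Open points were not well above background in the lung channel. Ahrr and Cyp1b1 step up with dose with no overlap between the vehicle and any dose group, while 3 of 4 high-dose mice stand above the other groups for Cyp1a1. The y axes differ between panels.

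The promoters of the genes that the results turn on are printed first, to show where the receptor's core element stands in them. Promoter sequence from RefSeq (GRCm38.p6) was given for 7 of the 9 members, not for Ahr and Aldh3a1. The 250 bases before the start site were searched for GCGTG on both strands, so that CACGC also counts, and matches are in capitals. The 3 promoters shown are those of Ahrr and Cyp1b1, which were called at each dose, and of Cyp1a1, the gene most used as a marker of AHR activity. Sequences run 5′ to 3′ on the strand of the gene, up to its start site.
Ahrr (chr13:74292332-74292581, minus strand): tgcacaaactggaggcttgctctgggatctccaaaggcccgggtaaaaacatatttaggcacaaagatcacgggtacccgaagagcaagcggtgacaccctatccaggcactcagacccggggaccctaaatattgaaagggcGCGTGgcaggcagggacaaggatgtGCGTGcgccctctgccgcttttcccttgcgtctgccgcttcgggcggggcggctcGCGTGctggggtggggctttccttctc
Cyp1b1 (chr17:79715062-79715311, minus strand): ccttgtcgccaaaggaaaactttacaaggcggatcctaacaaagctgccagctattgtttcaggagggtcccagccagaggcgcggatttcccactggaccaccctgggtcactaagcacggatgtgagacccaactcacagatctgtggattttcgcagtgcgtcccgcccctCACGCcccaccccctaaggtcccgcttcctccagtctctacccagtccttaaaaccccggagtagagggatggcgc
Cyp1a1 (chr9:57697363-57697612, plus strand): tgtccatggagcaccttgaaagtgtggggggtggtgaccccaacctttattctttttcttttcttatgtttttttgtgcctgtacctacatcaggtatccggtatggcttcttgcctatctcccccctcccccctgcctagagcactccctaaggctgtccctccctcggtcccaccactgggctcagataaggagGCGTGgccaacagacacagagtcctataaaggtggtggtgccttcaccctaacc
The Ahrr window held 3 matches, starting 107, 82 and 27 bases before the start site, all on the strand of the gene. The Cyp1b1 window held 1 match at 76 bases, on the opposite strand, and the Cyp1a1 window 1 match at 54 bases. Of the other members, the Tiparp and the Arnt window held 1 match each and those of Nqo1 and Cyp1a2 none. Of 32851 promoters of the same length, 28.2% held at least 1 match and 2.77% held at least 3. With the longer form TNGCGTG, which contains the core, the match nearest the start site of Ahrr was the single one among the 7 members, beside 4.1% of all promoters. A match in this window describes the letters alone, and elements farther upstream, where CYP1 enhancers are known to lie, were not searched.

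The receptor and its partner did not pass the test at any dose. Ahr, measured by A_55_P2109613, had log2 ratios of 1.16, 1.84, 1.34, 1.46 and 1.95 in vehicle mice 1 to 5. They were 1.34, 1.34, 1.54 and 1.75 in low-dose mice, 1.31, 1.28, 1.21, 1.23 and 1.64 in medium-dose mice and 1.47, 1.37, 1.13 and 1.35 in high-dose mice. The vehicle mice spread most, and each dose group overlapped them. With rising dose the log2 change was -0.06 (95% interval -0.34 to 0.23), -0.21 (-0.48 to 0.06) and -0.22 (-0.50 to 0.07), with limma adjusted p of 0.96, 0.482 and 0.501. These intervals leave out a rise of 1.5-fold and a fall by that factor alike. A second Ahr probe was dim, well above background on 4 of 5 vehicle, 3 of 4 low, 3 of 5 medium and 2 of 4 high-dose arrays, with log2 changes of -0.12, -0.14 and -0.20.

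Arnt, the partner that AHR needs to bind DNA, was measured by A_55_P2100895. Its log2 ratios lay between -0.04 and 0.23 in vehicle, -0.08 and 0.36 in low, 0.02 and 0.16 in medium and -0.06 and 0.30 in high-dose mice. All groups overlapped. The log2 change was 0.12 (standard error 0.09), 0.06 (0.09) and 0.11 (0.09), with limma adjusted p of 0.8, 0.848 and 0.663. A second Arnt probe went the other way, at -0.10, -0.17 and -0.19, and did not pass either, so no direction is given for this gene.

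Ahrr, the AHR repressor, which competes with AHR for ARNT, rose at each dose. The probe was A_51_P254425. Its log2 ratios were -0.76, -0.67, -0.63, -0.60 and -0.61 in vehicle mice 1 to 5 and 0.02, 0.23, -0.09 and -0.02 in the low-dose mice. They were 0.22, 0.43, 0.29, 0.44 and 0.12 in medium-dose and 0.89, 0.82, 0.72 and 0.77 in high-dose mice. Every dosed mouse lay above every vehicle mouse, every high-dose mouse lay above every medium-dose mouse, and the low and medium groups overlapped only where mouse 7 reached mice 11 and 15. The log2 change was 0.69, 0.95 and 1.45 with rising dose (standard error 0.08 each), or 1.61-, 1.94- and 2.74-fold, with limma adjusted p of 2.1e-04, 2.4e-07 and 7.5e-10.

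Ahrr was also the one member called between doses. High-dose mice exceeded low-dose mice by 0.76 (standard error 0.09, limma adjusted p = 8.5e-04), a comparison in which 0.0629% of named genes were called higher and 0.0194% lower. The difference between high and medium dose was 0.50 (0.08), with an unadjusted limma p of 4.7e-06 and an adjusted p of 0.132. No gene was called in that comparison, 0% in either direction, and 2084 of 55681 probes had an unadjusted p under 0.05. Within each of the 3 slides, the high-dose mice exceeded the vehicle mice by 1.57, 1.33 and 1.38.

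The Ahrr probe was dim in vehicle lungs, where it was well above background on 1 of 5 arrays, against all arrays of each dose group. Its median Cy5 signal was 84 to 106 in vehicle mice over a local background of 68 to 73, and 222 to 306 in high-dose mice over 77 to 79. Signals were used without background subtraction, and with the scanner software's own subtracted ratios the log2 change was 2.30, 2.78 and 3.55, the last an 11.7-fold rise. With these ratios it was called at each dose and between high and low dose, and normexp background correction gave 1.41 at the high dose. A second Ahrr probe was at background on each array (log2 changes 0.10, 0.01 and 0.17), and with the mean of both probes the calls at the low and medium dose and between high and low dose ended (0.39, 0.48 and 0.42, under the fold limit). Median centring in place of loess ended the low-dose call (0.65, limma adjusted p = 0.127) and the call between high and low dose (0.73, limma adjusted p = 0.161).

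**Figure D2:**
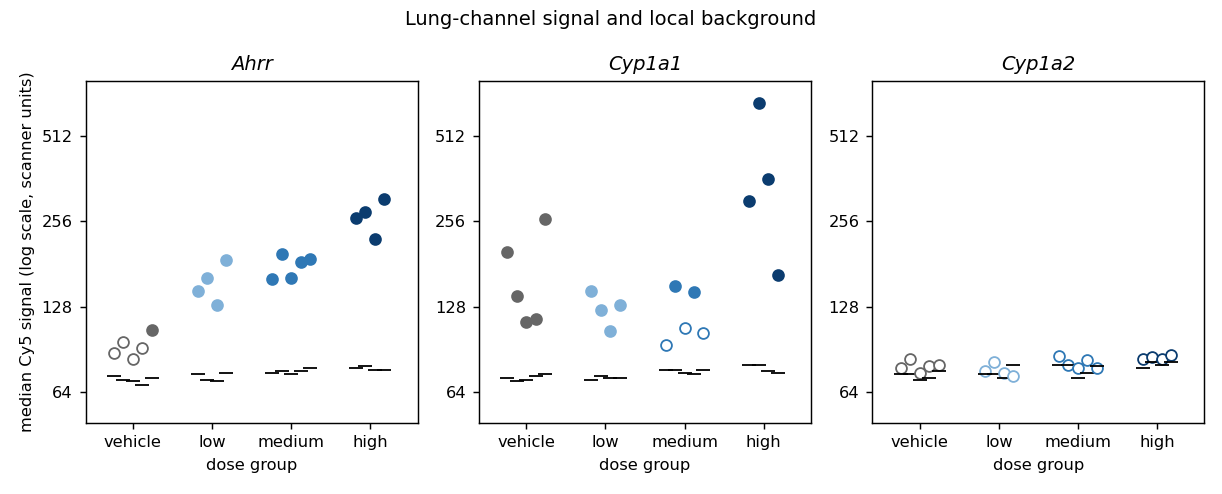
Median Cy5 signal of the lung channel (circles, log scale, scanner units) and its local background (dashes) for the Ahrr, Cyp1a1 and Cyp1a2 probes, 1 of each per mouse by dose group. Open circles were not well above background. Ahrr in vehicle mice lies at 84 to 106, little over the background, and Cyp1a2 stays between 73 and 87 in all 18 mice.

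Tiparp encodes an ADP-ribosyltransferase that modifies AHR and promotes its loss. By A_51_P514961, its log2 ratios were -1.05, -0.89, -1.19, -0.93 and -1.06 in vehicle mice and -0.78, -0.86, -0.84 and -0.91 at the low dose. They were -0.65, -0.78, -0.93, -1.08 and -0.91 in medium-dose and -0.68, -0.69, -0.91 and -0.83 in high-dose mice. At the low and high dose 3 of 4 mice lay above all vehicle mice, and the groups overlapped. The log2 change was 0.18, 0.15 and 0.25 (standard error 0.09 at the high dose), with limma adjusted p of 0.634, 0.394 and 0.132. The 95% interval at the high dose was 0.07 to 0.43, all of it under 1.5-fold. A second probe gave 0.15, -0.06 and 0.16 and did not pass.

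Of the 3 CYP1 monooxygenases, Cyp1b1 rose at each dose. This enzyme is known for high activity toward dihydrodiols of aromatic hydrocarbons and is expressed mostly outside the liver. By A_51_P255456, its log2 ratios were -1.60, -1.55, -1.45, -2.25 and -1.65 in vehicle mice 1 to 5 and -1.06, -0.80, -1.17 and -0.37 in low-dose mice. They were -0.71, -0.72, -0.69, -0.32 and -0.32 in medium-dose and -0.11, 0.10, -0.24 and -0.22 in high-dose mice. Every dosed mouse lay above every vehicle mouse, and the high-dose mice lay above all low- and medium-dose mice. Mouse 4 lay far below the other vehicle mice, and mouse 10, at -0.37, close to the top of the medium group.

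The log2 change of Cyp1b1 was 0.85 (standard error 0.16), 1.15 (0.15) and 1.58 (0.16) with rising dose, with limma adjusted p of 0.0295, 1.5e-04 and 3.6e-06. These are 1.80-, 2.22- and 2.99-fold rises, and the low and medium dose gave 53.8% and 72.6% of the high-dose change on the log2 scale. The probe was well above background on all 18 arrays in both channels. Within the 3 slides, the difference between high dose and vehicle was 1.57, 1.60 and 1.44.

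High- and low-dose mice differed by 0.73 in Cyp1b1 (95% interval 0.38 to 1.08, limma adjusted p = 0.177) and high- and medium-dose mice by 0.43 (0.10 to 0.76, limma adjusted p = 1), so a difference between doses was not called. Without mouse 10, high and low dose differed by 0.89 with an adjusted p of 0.0416. Over all 18 fits without 1 mouse, that difference ran from 0.62 to 0.89, with limma adjusted p of 0.0416 to 0.529. The low-dose call against vehicle was the weakest of the 3. It ended without mouse 1, 4, 5, 7 or 10 (limma adjusted p of 0.0511, 0.059, 0.0539, 0.0715 and 0.13 in turn), and also with the scanner software's ratios, median centring, scale normalization or a fit of the compared groups alone (0.091, 1, 0.0547 and 0.101). With median centring the medium-dose call ended as well (1.18, limma adjusted p = 0.184).

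**Figure D3:**
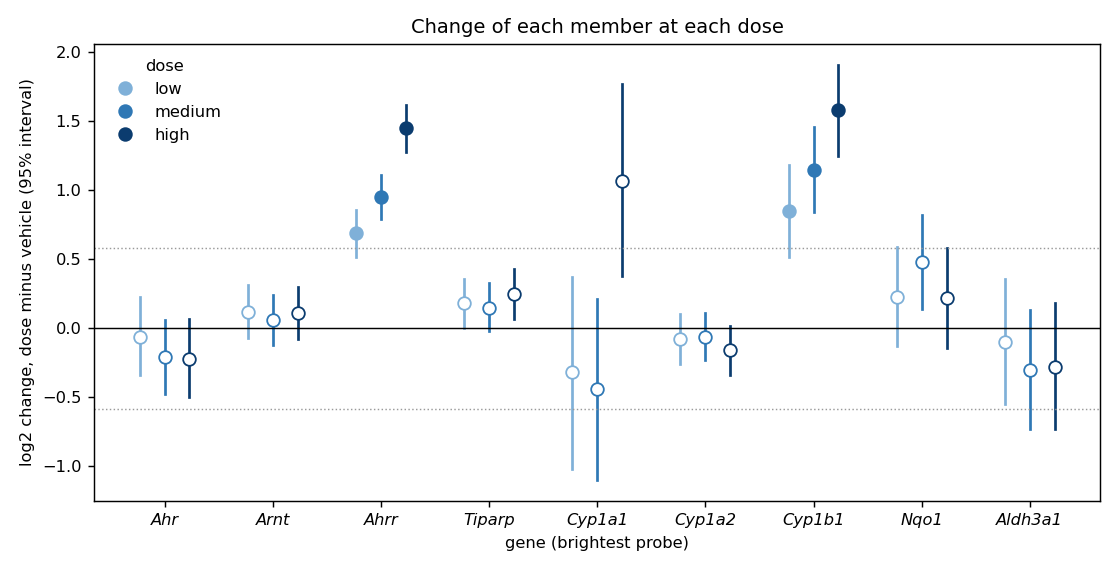
Log2 change of each member's brightest probe against the vehicle at the low, medium and high dose, with 95% intervals from the limma fit. Filled points were called, and dotted lines mark 1.5-fold. Ahrr and Cyp1b1 are called at all 3 doses, at 0.69 to 1.45 and 0.85 to 1.58, and the Cyp1a1 interval at the high dose runs from 0.38 to 1.77.

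Cyp1a1, the monooxygenase that is the standard marker of AHR activation, was not called at any dose. By A_51_P279693, its log2 ratios were 1.59, 0.82, 0.60, 0.37 and 1.65 in vehicle mice 1 to 5 and 1.03, 0.67, 0.35 and 0.67 in low-dose mice. They were 0.07, 1.02, 0.46, 0.74 and 0.51 at the medium dose and 2.02, 3.13, 2.40 and 0.76 in mice 16, 17, 18 and 20 at the high dose. High-dose mice 16, 17 and 18 lay above all other mice, while mouse 20 lay within the vehicle range. Among the vehicle mice, 1 and 5 stood above the highest low- and medium-dose mice.

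The log2 change of Cyp1a1 was -0.32 (standard error 0.33), -0.44 (0.31) and 1.07 (0.33) with rising dose, with limma adjusted p of 0.878, 0.575 and 0.0773. The high dose exceeded the low by 1.40 (0.35, limma adjusted p = 0.282) and the medium by 1.52 (0.33, limma adjusted p = 0.811). These were the largest positive differences of all 20660 named genes in both comparisons, yet neither passed the adjustment over all probes. Without mouse 20 the change against vehicle was 1.51 (limma adjusted p = 0.00311), against low 1.84 (0.0177) and against medium 1.96 (0.0433), each past the threshold. Among the 18 fits without 1 mouse, this was the single one that called Cyp1a1 in these comparisons. Over those fits, the high-dose change against vehicle ran from 0.72 to 1.51, with limma adjusted p up to 0.306. Within slides, the high-dose difference from vehicle was 1.37 and 1.92 on slides 1 and 2 and -0.89 on slide 3, which held 1 mouse of each group, mouse 20 and vehicle mouse 5 among them. Scale normalization between arrays brought the high-dose change past the threshold (1.22, limma adjusted p = 0.0438), and the remaining alternatives that keep all mice did not.

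**Figure D4:**
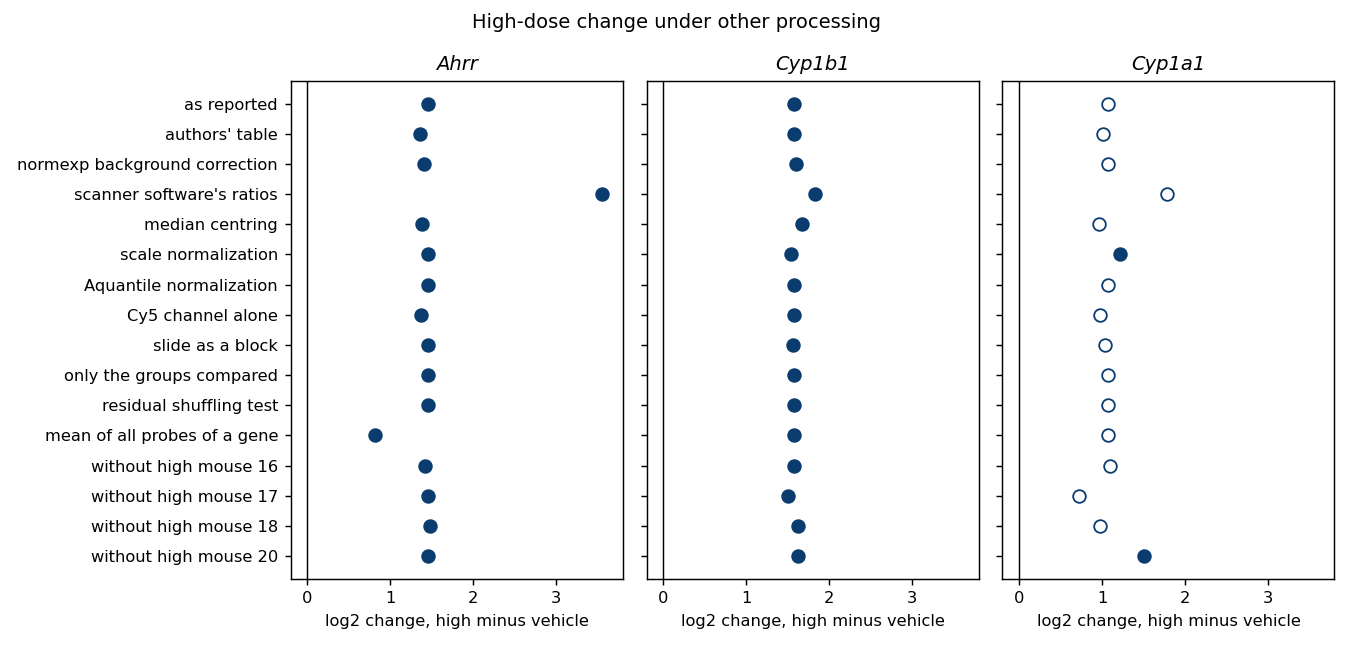
Log2 change at the high dose against the vehicle for Ahrr, Cyp1b1 and Cyp1a1 as reported, under other processing and without each high-dose mouse. Filled points were called. Aquantile normalization leaves the log2 ratios as they are, so its points repeat those reported. Ahrr runs from 0.81 to 3.55 and is called throughout, Cyp1b1 is called throughout, and Cyp1a1 is called with scale normalization (1.22) and without mouse 20 (1.51).

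The Cyp1a1 signal was low. In the lung channel it was 113 to 262 in vehicle mice, and 302, 671, 360 and 166 in mice 16, 17, 18 and 20, over a local background of 70 to 80 in all groups. The lung channel was well above background on all vehicle, low- and high-dose arrays and on 2 of 5 medium-dose arrays. The reference channel was not well above background on any array, so the ratio measures the lung signal against a reference near background. With the scanner software's ratios the changes were -0.62, -1.57 and 1.78, none past the threshold.

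Cyp1a2, a monooxygenase known mainly from the liver, could not be measured in these lungs. Its probe, A_52_P595871, was not well above background on any of the 18 arrays in either channel. The Cy5 signal was 73 to 87 over a local background of 71 to 82. No fold is given, and its log2 ratios, from -0.26 to 0.19, are those of a probe at background.

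Nqo1 encodes a quinone reductase that reduces quinones of aromatic hydrocarbons and is controlled by NRF2 as well as AHR. By A_51_P424338, its log2 ratios were -1.56, -1.31, -1.52, -1.90 and -1.59 in vehicle mice and -1.45, -1.35, -1.41 and -1.18 at the low dose. They were -1.09, -1.14, -1.37, -1.02 and -0.85 at the medium dose and -1.22, -1.02, -1.04 and -2.15 in mice 16, 17, 18 and 20. At the medium dose 4 of 5 mice, and at the high dose 3 of 4, lay above all vehicle mice, whereas mouse 20 lay below all of them. The log2 change was 0.23 (standard error 0.17), 0.48 (0.16) and 0.22 (0.17), with limma adjusted p of 0.8, 0.114 and 0.617. Without mouse 20, the high-dose change was 0.48 with a limma adjusted p of 0.0269, under the fold limit. Over all 18 fits without 1 mouse, the high-dose change ran from 0.11 to 0.48, with limma adjusted p of 0.0269 to 0.879. The medium-dose change ran from 0.40 to 0.55 over these fits, under the fold limit, with limma adjusted p of 0.0118 to 0.246. A fit of the compared groups alone gave a limma adjusted p of 0.0343 at the medium dose, also under that limit.

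Aldh3a1, an aldehyde dehydrogenase that AHR ligands induce in several tissues, was not called. By A_55_P2101216, its log2 ratios were 1.20, 1.15, 0.76, 0.31 and 1.38 in vehicle mice and 0.88, 0.84, 0.53 and 1.20 at the low dose. They were 1.03, 0.12, 0.62, 0.28 and 1.27 in medium-dose and 0.40, 0.72, 0.60 and 1.01 in high-dose mice. All groups overlapped, and the range within each group was wider than any difference between group means. The log2 change was -0.10 (standard error 0.22), -0.30 (0.21) and -0.28 (0.22), with limma adjusted p of 0.955, 0.563 and 0.62, and a second probe gave -0.18, -0.32 and -0.34. The 95% interval at the high dose, -0.73 to 0.18, leaves out a rise of 1.5-fold.

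High-dose mouse 20 had the lowest value of its group in both Cyp1a1 and Nqo1, whereas its Ahrr (0.77) and Cyp1b1 (-0.22) values lay within their group. The mean log2 ratio of 3 adipocyte markers (Adipoq, Plin1 and Cidec) was 3.01 in this mouse, beside 1.13 to 1.77 in the other high-dose mice and 0.97 to 2.00 over the other groups. The mean of 3 cardiomyocyte markers was 3.64 in it, but ranged from 0.18 to 4.03 over all mice and differed widely within every group. Mouse 20 also had the highest mean of all mice for the macrophage list (4.97, next 4.88) and the alveolar type 2 list (5.62, next 5.56). The same held for the hepatocyte list (0.17, next 0.15), whose genes were not above background on all arrays of any group, so such narrow leads say little. The part of the cells behind these lists in its Cyp1a1 and Nqo1 values was not tested. Over the 15 marker lists, 1 of 5 endothelial genes (Pecam1) was called higher at the medium and high dose. At the high dose Pecam1 was at 0.74 and Tek at 0.31, while Cdh5 was at -0.10, Cldn5 at -0.19 and Kdr at -0.38. Kdr passed the adjusted p there (limma adjusted p = 0.0168) but not the fold limit, and its high-dose mice lay below all vehicle mice. Of 3 fibroblast genes 1 was called lower at both doses, and of 3 B cell genes 1 was called higher at the medium dose. Of all named genes, 0.503% and 0.736% were called higher at the medium and high dose, and 0.431% and 0.774% lower. The part of these marker genes in the member results was not tested.

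The genes whose log2 ratios followed a member's most closely over the 18 mice were taken from those well above background on all arrays, by Pearson's r, and are given as a description. For Ahrr they were Zmat3 (r 0.955, Spearman's rho 0.93), Plk2 (0.953, 0.93) and Aen (0.948, 0.922). For Cyp1b1 they were Thyn1 (r 0.928, rho 0.874), Gne (0.926, 0.895) and Commd3 (0.914, 0.882). For Cyp1a1 they were Scn3a (r 0.756, rho 0.789), Gm15772 (0.726, 0.377) and Ccn1 (0.723, 0.659). All mice share the dose groups, so any gene that steps with dose correlates with Ahrr and Cyp1b1. After each group's mean was taken out, r with Ahrr was 0.343 for Zmat3, 0.464 for Plk2 and 0.555 for Aen. With Cyp1b1 it was 0.561 for Thyn1, 0.728 for Gne and 0.323 for Commd3. With Cyp1a1 it was 0.674 for Scn3a, 0.516 for Gm15772 and 0.595 for Ccn1.

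The proteins that hold and assist the receptor were looked at next. Of 13 genes of the receptor complex and its coregulators, all measured and above background, none was called in either direction at any dose. At the high dose 2 of 13 were above the vehicle mean and the rest below it, with a median log2 change of -0.14 beside 0.02 for all named genes. The lowest was Hsp90aa1, a chaperone of the resting receptor, at -0.39 (standard error 0.27, limma adjusted p = 0.553). In this list 2 coactivators, named here after their values were seen, passed the adjusted p but not the fold limit. Crebbp was at -0.33 in the high group (0.09, limma adjusted p = 0.0295) and Ncoa1 at -0.36 in the medium group (0.08, limma adjusted p = 0.0104), and in both cases the dosed mice lay below all vehicle mice.

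Of 13 other bHLH-PAS genes, the family of AHR and ARNT, 8 were above background on all arrays of a group. Arntl, the partner of CLOCK in the circadian clock, was called lower at each dose, at -1.04 (standard error 0.18), -1.37 (0.17) and -1.59 (0.18), with limma adjusted p of 0.0124, 7.1e-05 and 1.4e-05. Its vehicle and dosed mice did not overlap at any dose. No other gene of the family was called at any dose. Npas2, which can stand in for CLOCK and was also named after its values were seen, passed the adjusted p in the medium group (-0.47, limma adjusted p = 0.0311) but not the fold limit. The Npas2 probe was dim, well above background in the lung channel on 7 of 18 arrays. The highest at the high dose was Hif3a, a hypoxia-inducible factor, at 0.34 (0.19, limma adjusted p = 0.432).

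Of 21 further genes known to respond to AHR, 19 were measured, and 15 were above background on all arrays of a group. At the high dose 15 of the 19 were above the vehicle mean, Ido1 and Fgf21 among them, which were not well above background on any array. The median log2 change was 0.12, beside 0.02 for all named genes. In the list 1 gene was called higher and none lower, against 0.736% and 0.774% of all named genes. The gene called was Slc46a3, a lysosomal transporter, at 0.75 (standard error 0.10, limma adjusted p = 1.4e-04), and all 4 high-dose mice lay above all vehicle mice. Its change was 0.48 with an adjusted p of 0.0612 in the low group and 0.56 with one of 0.00198 in the medium group, both under the fold limit. Htatip2, named after its values were seen, passed the adjusted p in the medium (0.44, limma adjusted p = 0.0311) and the high group (0.56, limma adjusted p = 0.00785), likewise under the fold limit. The lowest were Ugdh and Aldh1a3, at -0.07 each.

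Among 13 measured enzymes of 14 listed that handle aromatic hydrocarbons beside CYP1, Ephx1 was called higher at each dose. Ephx1 encodes microsomal epoxide hydrolase, which turns hydrocarbon epoxides into the dihydrodiols that CYP1 enzymes oxidize further. Its log2 change was 0.88 (standard error 0.11), 1.06 (0.10) and 1.35 (0.11), with limma adjusted p of 4.6e-04, 4.8e-06 and 2.1e-07. No other gene of this list was called at any dose. Of 8 NRF2 targets, the set that Nqo1 also belongs to, none was called at any dose, and at the high dose they ran from -0.39 for Hmox1 (heme oxygenase) to 0.22 for Gclm (a subunit of glutamate-cysteine ligase).

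**Figure D5:**
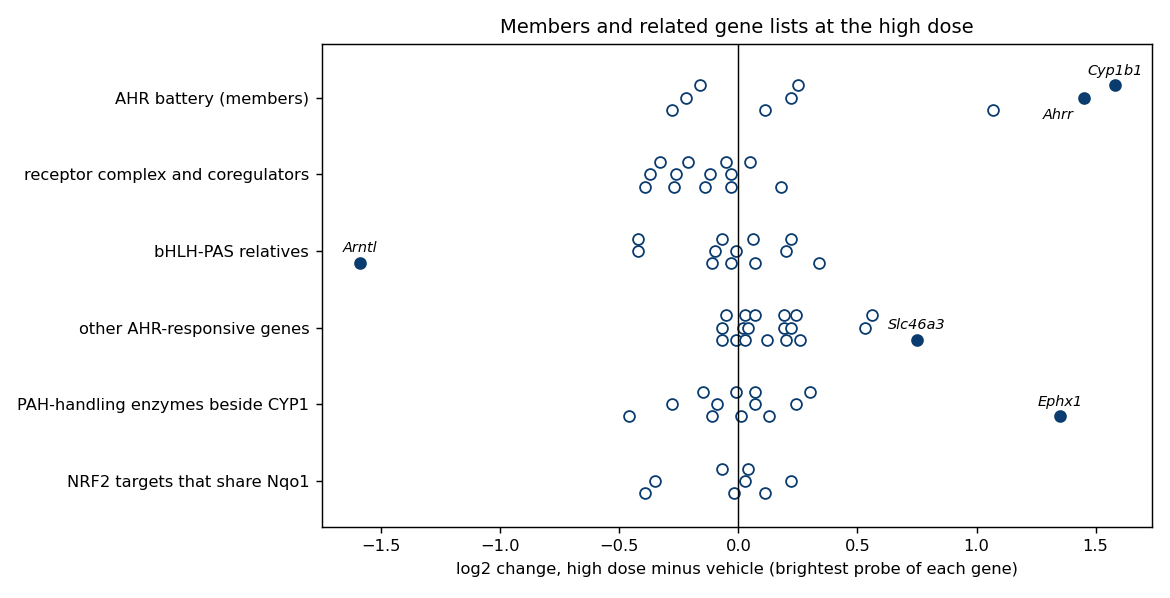
Log2 change at the high dose against the vehicle for the 9 members and for each measured gene of 5 related lists, 1 point per gene by its brightest probe. Filled points were called and are named. Ahrr, Cyp1b1, Slc46a3 and Ephx1 are called higher and Arntl is called lower, and Cyp1a1, at 1.07, is the highest point not called.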

How the data were processed

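Lung RNA of 18 mice was hybridized with a common reference RNA to Agilent 8 x 60K two-colour arrays, 1 array per mouse. The deposited scanner output (Feature Extraction 11.0.1.1 per the file headers) gives median intensities of the Cy5 and Cy3 channel per spot and of the local background, to which the authors had applied no subtraction or normalization. The same deposited output holds the scanner software's log10 ratios, which are background-subtracted and dye-normalized. A further deposited table holds the authors' log2 ratios, normalized within arrays. Set against the loess ratios of the same arrays, its columns had a Pearson r of 0.995 to 0.998, a slope of 0.991 to 0.996 and medians of -0.0316 to -0.0191, which settles its direction (Cy5 over Cy3) and scale, while its centring is not given in the sources used here.

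Here, median intensities were left unsubtracted, following the study's methods, and their log2 ratios were loess-normalized within arrays in R 4.3.3 with limma 3.58.1. Outlier spots (215 to 307 per array) and control spots had weight 0 and were left out, so that 86 probes lack a value for 1 or more mice. All 4 groups were fitted together by limma's lmFit and eBayes. For each comparison the p-values of 55681 probes were adjusted together (Benjamini-Hochberg), and a call needed an adjusted p of 0.05 or less and at least 1.5-fold. The study used MAANOVA, for which limma stands in, and residual shuffling with 100 shuffles was an alternative. A gene is its probe with the highest mean log2 intensity, and names came from RefSeq (GRCm38.p6), which named 27235 probes. The rule named all members, the called, highest and lowest genes of each related list, and the 3 genes most like Ahrr, Cyp1b1 and Cyp1a1, apart from 2 list genes that are not reported here. The members, the lists (from general knowledge) and the rule were chosen with earlier results of these data known. The share of spots well above background in Cy5 was 52.9% to 62.1% per array, and precision is limited by how many arrays there are. Each of 3 slides held all 4 groups, but arrays of 1 dose group stood in 1 column of each slide, so position and dose cannot be told apart. On simulated data with known changes the fit was tested first. Alternatives were median centring, scale and Aquantile normalization, normexp correction (offset 50), ratios as the scanner software or as the authors' table give them, the Cy5 channel alone, the slide as a block, only probes above background (29496), only the groups compared, residual shuffling, adjustment over the 3 doses together, no fold limit, the mean of a gene's probes, and each mouse left out in turn.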

Additional observations from a re-analysis of the deposited data

Results flagged for a closer look

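In 3 of the 36 sets of values tested (9 members in 4 groups), 1 mouse stood apart from the rest of its group by Dixon's test at the 95% level, which chance gives in about 1 of 20 sets. Vehicle mouse 4 had a Cyp1b1 log2 ratio of -2.25, against -1.65 to -1.45 in the other vehicle mice, and without it the low-dose change was 0.71 (limma adjusted p = 0.059). Medium-dose mouse 15 had an Ahr log2 ratio of 1.64, against 1.21 to 1.31 in its group. Vehicle mouse 5 had an Arnt log2 ratio of 0.23, against -0.04 to 0.02. Neither Ahr nor Arnt was called with or without these mice.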

How the results depend on the processing

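Ahrr and Cyp1b1 stayed called at the high dose under all 14 alternatives and all 18 fits without 1 mouse, joined by Cyp1a1 with scale normalization and without mouse 20. Among these alternatives, lifting the fold limit could not end a call. Aquantile normalization changes intensities and leaves the log2 ratios as they are, so it repeats the reported fit and is no separate check. Ahrr passed the filter for probes above background through the dosed groups and not through the vehicle group, so that filter is no separate check of its call. At the low dose the count of members called fell from 2 to 1 with the scanner software's ratios, scale normalization, only the groups compared and the mean of a gene's probes, and to 0 with median centring. At the medium dose it fell to 1 with median centring and with the mean of a gene's probes. Between high and low dose it fell from 1 to 0 with both. Without 1 mouse, the count ran from 1 to 2 at the low dose, from 1 to 2 between high and low dose and from 0 to 1 between high and medium dose.

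The sign of members that were not called turned in places. With the scanner software's ratios, Cyp1a2 at the low and medium dose was 0 and Nqo1 between high and low dose 0.02. With median centring, Ahr was 0.06 at the low and 0.02 at the high dose and 0.08 between high and medium dose, Aldh3a1 0.04 at the low dose, and Arnt 0.09 and Nqo1 0.07 between high and low dose. Arnt between high and low dose was 0 with the authors' table and with the Cy5 channel alone, which also gave 0.03 for Cyp1a2 between high and low and 0 for Aldh3a1 between high and medium dose. Ahr between high and medium dose was 0.02 with scale normalization, and Aldh3a1 in that comparison -0.05 with the slide as a block. The mean of both Arnt probes was -0.06 (medium dose) and -0.04 (high dose). Without 1 mouse, Ahr at the low dose ran from -0.15 to 0.04 and Aldh3a1 from -0.26 to 0.01. Between high and low dose, Arnt ran from -0.10 to 0.05 and Nqo1 from -0.12 to 0.25. Between high and medium dose, Ahr ran from -0.05 to 0.07, Arnt from 0 to 0.12, Nqo1 from -0.37 to 0 and Aldh3a1 from -0.12 to 0.17.

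The cause of these differences was not tested. With only probes above background, Cyp1a2 has no value. Signal over background limits Cyp1a2, Ahrr in vehicle lungs and Cyp1a1 at the medium dose. No paired analysis was possible because the groups compared share no replicate numbers, so mice were not paired by number. The slide, which held all 4 groups, was used as a block instead, and the members called were those of the fit without it in each comparison.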
